A study of Mus musculus with 12 samples.

Results

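Marginal zone B cells (MZB) labelled as knockout for the histone demethylase LSD1 were compared with wild-type MZB by ATAC-seq, in which the transposase Tn5 cuts open DNA and tags it for sequencing. The comparison was between 6 of the study's 12 libraries, namely 3 from knockout MZB and 3 from wild-type MZB, each made from 10000 cells. Both groups were unstimulated splenic cells of female C57BL/6J mice, sorted as B220+, CD21hi and CD1d+ cells that lacked CD23, CD93, GL7, Thy1.1, F4/80 and CD11b. Their labels differed only in LSD1 status. The labels do not name a Cre line or other means of deletion, the cells that carried it, the deleted exons, the age of the mice or any pooling of mice. The remaining 6 libraries came from follicular B cells (FoB), 3 from knockout and 3 from wild-type mice, sorted as CD23+, CD21mid and CD1d- cells by an otherwise equal gate. These FoB libraries entered the filter of regions and the shared estimate of the spread. Of the 94161 regions in the deposited table, 89782 had at least 1 rppm in at least 3 of the 12 libraries and were tested, where 1 rppm is 1 read per 1000000 reads in the listed regions. The comparison is described with and without 6 stretches of chromosomes, called the blocks, in which earlier work on these data had found calls to be dense. They are 5 Mb from 120 Mb and 15 Mb from 130 Mb on chromosome 1, the 5 Mb that end at 140 Mb on chromosome 4, 5 Mb from 55 Mb on chromosome 12, 5 Mb from 35 Mb on chromosome 15 and 15 Mb from 75 Mb on chromosome 18. They held 2066 of the tested regions and left 87716 outside.

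LSD1, the product of Kdm1a, removes methyl groups from lysine 4 of histone H3 and works with the corepressor CoREST and histone deacetylases to close enhancers and promoters. In differentiating B cells it is known to close enhancers. MZB sit at the border of the splenic white pulp, depend on NOTCH2 and NF-kB signalling, and answer blood-borne antigens quickly with antibody. ATAC-seq reads out how often a stretch of DNA is open and does not measure methylation or transcription.

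In the tested set, 6838 regions held the whole promoter window of a protein-coding gene, here the 250 bases before and 50 bases after an annotated start. Outside the blocks 28 of 6728 such regions were called in knockout against wild-type MZB (0.416%, against 0.626% of all tested regions there), 17 higher and 11 lower. The promoters of Sox4 and Tsc22d1, which rose, and of Foxp1 and Lgr4, which fell, were chosen for printing after their values were seen. They are not all of the called promoters whose values are given below, since that of Sgk1 is not printed. The Kdm1a promoter is printed because it is the targeted gene. The sequences are RefSeq's on GRCm38.p6, the assembly called mm10, each 300 bases from 5′ to 3′ on the gene's own strand. Capitals mark matches of CAGNTG, the E-box read by E proteins, searched on both strands.
Kdm1a (chr4:136602674-136602973, minus strand): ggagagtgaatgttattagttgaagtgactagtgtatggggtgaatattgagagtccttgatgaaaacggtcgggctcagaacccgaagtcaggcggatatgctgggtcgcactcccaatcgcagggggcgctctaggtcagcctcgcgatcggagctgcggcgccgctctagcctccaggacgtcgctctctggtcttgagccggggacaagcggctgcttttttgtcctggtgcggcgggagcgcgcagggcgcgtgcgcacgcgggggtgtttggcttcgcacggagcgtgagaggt
Sox4 (chr13:28953650-28953949, minus strand): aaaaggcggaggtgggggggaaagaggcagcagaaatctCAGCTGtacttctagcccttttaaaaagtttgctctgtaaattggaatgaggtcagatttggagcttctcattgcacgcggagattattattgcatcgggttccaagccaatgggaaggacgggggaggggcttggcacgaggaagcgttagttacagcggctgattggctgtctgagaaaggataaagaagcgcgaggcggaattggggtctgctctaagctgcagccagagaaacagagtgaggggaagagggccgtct
Tsc22d1 (chr14:76414711-76415010, plus strand): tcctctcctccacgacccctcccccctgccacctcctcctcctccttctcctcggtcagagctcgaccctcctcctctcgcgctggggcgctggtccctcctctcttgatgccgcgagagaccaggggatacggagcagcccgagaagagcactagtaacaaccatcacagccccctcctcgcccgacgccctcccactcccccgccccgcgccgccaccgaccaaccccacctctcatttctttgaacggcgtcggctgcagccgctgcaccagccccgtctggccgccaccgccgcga
Foxp1 (chr6:99028249-99028548, minus strand): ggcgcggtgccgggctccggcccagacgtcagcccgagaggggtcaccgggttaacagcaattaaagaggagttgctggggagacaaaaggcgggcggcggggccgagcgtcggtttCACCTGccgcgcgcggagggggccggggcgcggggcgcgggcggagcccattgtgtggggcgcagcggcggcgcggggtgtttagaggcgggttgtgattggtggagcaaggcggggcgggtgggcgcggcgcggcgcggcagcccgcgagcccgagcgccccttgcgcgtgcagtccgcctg
Lgr4 (chr2:109917397-109917696, plus strand): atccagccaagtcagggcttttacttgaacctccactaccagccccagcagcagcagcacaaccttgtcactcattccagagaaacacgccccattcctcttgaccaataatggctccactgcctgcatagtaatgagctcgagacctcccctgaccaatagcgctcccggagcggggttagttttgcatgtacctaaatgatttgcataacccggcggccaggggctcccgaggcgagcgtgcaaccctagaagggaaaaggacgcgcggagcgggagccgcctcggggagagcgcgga
Sox4 and Foxp1 held 1 match of CAGNTG each, and the others held none in this window. The motif occurred in 48.6% of 21263 protein-coding promoters of this length. The GC box GGGCGG (46.2% of promoters) matched 3 times in Foxp1 and 1 time in Tsc22d1, and the PU.1 core GAGGAA (27.4%) matched 1 time each in Sox4 and Lgr4. The Runx core TGTGGT (14.97%) matched in none of the 5. The Foxp1 window had 75.3% G and C and the Tsc22d1 window 69.0%, against a median of 56.3% over all promoters and 52.0% in Sox4. These matches describe letters and are not evidence of binding.

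The knockout MZB libraries held 4287593, 3169966 and 3383716 reads in regions and the wild-type MZB libraries 3705153, 3761569 and 3215626, so that 3 reads correspond to 0.70 to 0.95 rppm. On the first principal component of the 6 libraries, which carried 31.2% of the variance, the knockout libraries lay at -22.3, -83.2 and -72.0 and the wild-type libraries at 51.8, 51.7 and 73.9. Knockout library 1 thus lay nearest to the wild-type libraries. Of the genes of the sorting markers and of the MZB programme checked, Fcer2a, Cd1d1 and Dtx1 differed in the direction of the MZB label and Cr2 did not. Fcer2a, which encodes the sorting marker CD23, summed to 48.5 to 54.9 rppm in knockout and 44.8 to 53.2 rppm in wild-type MZB, against 95.1 to 96.2 rppm in knockout and 92.3 to 102 rppm in wild-type FoB. Dtx1, a Notch target of MZB, summed to 198 to 219 rppm in knockout and 204 to 222 rppm in wild-type MZB, against 118 to 131 rppm in knockout and 131 to 144.8 rppm in wild-type FoB. Cd1d1, which encodes the sorting marker CD1d, summed to 157 to 176 rppm in knockout and 156 to 161 rppm in wild-type MZB, against 128 to 142 rppm in knockout and 129 to 134 rppm in wild-type FoB. Cr2, which encodes CD21 (high on sorted MZB), summed to less in MZB than in FoB, with 269 to 291 rppm in knockout and 285 to 303 rppm in wild-type MZB, against 327 to 334 rppm in knockout and 322 to 366 rppm in wild-type FoB. The only tested region of Kdm1a, at its promoter (chr4:136601890-136603082), had 18.9, 29.7 and 26.6 rppm in the knockout libraries and 24.0, 28.5 and 16.5 rppm in the wild-type libraries. These overlapped (adjusted p = 0.773), and as the region need not lie in the deleted part it is no check of the knockout labels.

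More regions were called higher than lower in knockout MZB, except in the fit without knockout library 1. At an unadjusted p under 0.05 in limma the order outside the blocks was the reverse, with 5321 regions higher (6.07%) and 6079 lower (6.93%). Over all tested regions there the median log2 fold change of knockout over wild-type MZB was -0.02, and 46.9% were above 0. With the blocks, 451 of the 89782 tested regions were higher in knockout MZB (0.502%) and 247 were lower (0.275%), 698 in all (0.777%), at an adjusted p under 0.05, from limma on log2(rppm + 0.5) with Benjamini-Hochberg adjustment over all tested regions. Without the blocks, 363 of 87716 were higher (0.414%) and 186 were lower (0.212%). Inside the blocks the shares were 4.26% (88 higher) and 2.95% (61 lower), or 7.21% in all. Groups of 3 libraries that do not overlap occurred in 17.7% of all tested regions, 17.4% outside and 28% inside the blocks. All fold changes below are knockout over wild-type on that log2 scale, with standard errors, and understate changes of low regions. Separate mice are not stated for the libraries of a group, so these tests measure the spread between libraries. The number of calls depended on single libraries, where higher and lower calls outside the blocks are given as a percentage of the regions there. Leaving out knockout library 1 gave 0.324% higher and 0.351% lower, knockout library 2 0.165% and 0.0718%, and knockout library 3 0.20% and 0.14%. Leaving out wild-type library 1 gave 0.242% higher and 0.0661% lower, wild-type library 2 0.257% and 0.0695%, and wild-type library 3 0.203% and 0.0502%. On the recovered reads, edgeR called 430 regions higher (0.479%) and 299 lower (0.333%), with 348 (0.397%) and 233 (0.266%) outside and 82 (3.97%) and 66 (3.19%) inside the blocks. DESeq2 gave an adjusted p to 56705 regions and called 122 higher (0.215%) and 48 lower (0.0846%), with 84 (0.152%) and 24 (0.0433%) outside and 38 (3%) and 24 (1.9%) inside the blocks.

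**Figure D1:**
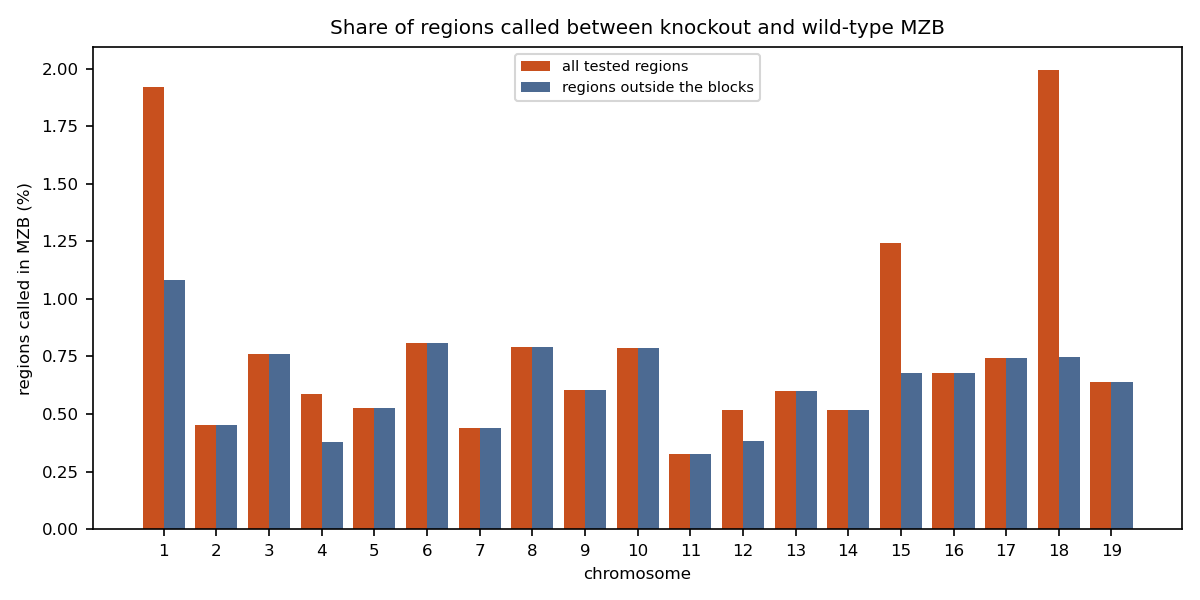
Percentage of tested regions called between knockout and wild-type MZB (y axis) on each chromosome (x axis), for all tested regions and for those outside the blocks. Chromosomes 1, 15 and 18 have the highest shares with the blocks, and chromosome 1 has 1.08% without them.

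The called regions outside the blocks were moderate in size and mostly distal. The 363 higher regions had a median log2 fold change of 0.85, and 130 of them rose at least 2-fold. Their median level was 14.2 rppm in knockout against 7.55 rppm in wild-type MZB. The 186 lower regions had a median of -1.16, and 113 of them fell at least 2-fold, with a median level of 3.71 rppm in knockout against 8.24 rppm in wild-type MZB. Knockout and wild-type libraries were fully apart in 358 of the 363 higher and in all 186 lower regions. Of those on chromosomes with start sites, 10.8% of the higher and 8.43% of the lower regions lay within 1 kb of a start, compared with 14.2% of all tested regions outside the blocks. More than 50 kb from a start lay 41.6% of the higher and 59.0% of the lower regions, compared with 37.7% of all. Higher calls were most frequent among regions of 10 to 20 rppm (126 of 12661, 0.995%). Below 2 rppm there were 14 higher and 43 lower calls among 20701 regions, and from 50 rppm 5 higher and 12 lower among 3219. The calls were assigned to 473 genes by overlap or nearest gene body, 423 of them with 1 called region and 15 with 3 or more. Chromosome 1 stayed above the others without its blocks, with 37 higher and 28 lower among 6004 regions (1.08%). The 1509 regions within 5 Mb of a block held 10 higher and 6 lower calls (1.06%).

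Among calls outside the blocks with separate groups and a mean of at least 5 rppm in the higher group, the largest rises were at Slc15a2, Gipc2, Hgf, Hdac9, Snd1, Sorcs2 and Serp2, each between 1.54 and 2.15 on the log2 scale. At Slc15a2, a transporter of small peptides, a region in the gene body (chr16:36770118-36770626) had 17.5, 13.3 and 13.6 rppm in knockout and 2.97, 1.60 and 4.98 rppm in wild-type MZB. Every knockout library was higher than any wild-type library, and the rise was 2.15 ± 0.24 (adjusted p = 6.21e-07). The same region rose in knockout FoB, by 1.17 (adjusted p = 0.00842). At Hgf, the gene of the growth factor that binds the receptor MET, a region 83146 bp from the gene (chr5:16469777-16470349) had 14.2, 12.9 and 15.1 rppm in knockout and 3.78, 2.13 and 4.67 rppm in wild-type MZB. It rose by 1.91 ± 0.26 (adjusted p = 3.09e-05). In FoB it stood at 3.84 ± 0.86 rppm in knockout and 2.68 ± 0.69 rppm in wild-type cells (SD, n = 3 each). At Hdac9, a class IIa histone deacetylase, a region in the gene body (chr12:34884893-34885307) had 5.36, 7.57 and 8.87 rppm in knockout and 3.78, 1.60 and 0.622 rppm in wild-type MZB, a rise of 1.82 ± 0.31 (adjusted p = 0.000914). The wild-type libraries spread widely there, but none reached the lowest knockout library.

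Sorcs2, a sorting receptor of the VPS10 family, carried a region (chr5:36089083-36089729) with 19.1, 25.2 and 23.6 rppm in knockout and 6.75, 7.18 and 6.22 rppm in wild-type MZB. It rose by 1.68 ± 0.20 (adjusted p = 2.17e-06), with little spread in either group. At Snd1, the gene of a nuclease-domain protein that binds RNA, a region in the gene body (chr6:28929088-28929716) had 14.0, 6.63 and 10.3 rppm in knockout and 2.97, 2.66 and 2.18 rppm in wild-type MZB. It rose by 1.75 ± 0.28 (adjusted p = 0.000284) and by about as much in FoB (1.78, adjusted p = 0.000222). Gipc2, which encodes a PDZ-domain protein, had a region 855 bp from the gene (chr3:152092597-152092984) with 8.40, 5.68 and 11.2 rppm in knockout and 1.08, 1.86 and 2.49 rppm in wild-type MZB. The rise was 1.95 ± 0.33 (adjusted p = 0.000697). A region inside Ankrd22 (chr19:34162649-34163098) had 8.40, 8.20 and 7.98 rppm in knockout and 2.97, 3.99 and 1.56 rppm in wild-type MZB, a rise of 1.45 ± 0.24 (adjusted p = 0.000719). These rises and those at Slc15a2, Hgf, Hdac9 and Serp2 stayed past the threshold in each fit without 1 library, that is for 8 of the 12 largest.

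The other 4 of the 12 largest rises were called with all 6 libraries and missed the threshold in some fits without 1 of them. At Gfra1, a receptor of the neurotrophic factor GDNF, a region 13414 bp from the gene had 4.20, 6.63 and 4.43 rppm in knockout and 1.62, 1.06 and 1.87 rppm in wild-type MZB (1.47 ± 0.30, adjusted p = 0.00925). Its adjusted p was 0.0998 without knockout library 2 and 0.0679 without wild-type library 2. At Prim2, the large subunit of DNA primase, a region had 5.13, 5.99 and 5.91 rppm in knockout and 1.35, 2.13 and 1.87 rppm in wild-type MZB (1.45 ± 0.32, adjusted p = 0.0189). Its adjusted p was 0.0918, 0.0786, 0.103 and 0.0589 without knockout libraries 2 and 3 and wild-type libraries 1 and 3. At Acoxl, 4964 bp from the nearest start, which is that of the pro-apoptotic gene Bcl2l11, a region had 3.73, 7.26 and 4.14 rppm in knockout and 1.35, 0.532 and 3.42 rppm in wild-type MZB. The rise of 1.45 ± 0.34 (adjusted p = 0.0254) had an adjusted p of 0.187, 0.0533, 0.0947 and 0.196 without knockout libraries 2 and 3 and wild-type libraries 1 and 2. Lhfp rose by 1.49 ± 0.36 (adjusted p = 0.032), with 5.60, 7.57 and 6.21 rppm in knockout and 1.35, 3.46 and 1.56 rppm in wild-type MZB. Its adjusted p was 0.052, 0.152 and 0.0926 without each knockout library and 0.158 and 0.151 without wild-type libraries 1 and 3.

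**Figure D2:**
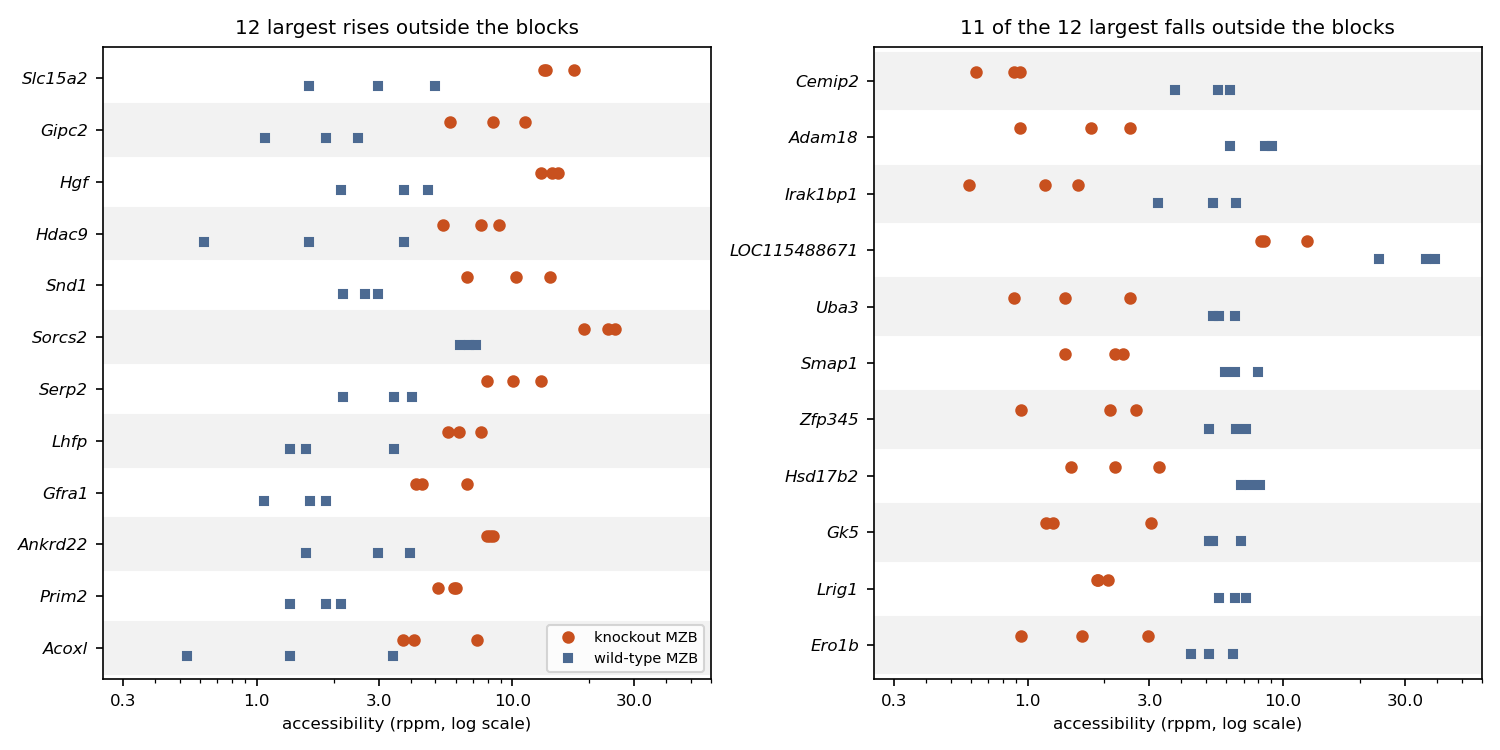
Accessibility in rppm (x axis, log scale) of the 12 regions with the largest rises and 11 of the 12 with the largest falls outside the blocks, 1 per gene (y axis), with each knockout MZB library as a circle above each wild-type MZB library as a square. The libraries of the groups do not overlap in any of the 23 regions, which the choice of regions required.

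In 11 of the 12 largest falls chosen by the same rule every MZB library had under 10 rppm. Cemip2, a cell-surface hyaluronidase, lay 72890 bp from a region (chr19:21931250-21931622) with 0.933, 0.631 and 0.887 rppm in knockout and 3.78, 5.58 and 6.22 rppm in wild-type MZB, a fall of -2.09 ± 0.35 (adjusted p = 0.000671). The 3 knockout libraries held 9 reads there in all and the wild-type libraries 55. The region with the most reads among the 12 overlapped Gspt1, which encodes a translation termination factor, and the uncharacterised LOC115488671 (chr16:11248648-11249507). It had 8.40, 8.20 and 12.4 rppm in knockout and 23.8, 39.4 and 36.4 rppm in wild-type MZB, a fall of -1.72 ± 0.22 (adjusted p = 1.17e-05). These 2 falls stayed past the threshold without each library, and the other 10 did not. In FoB the Gspt1 region had 11.8 ± 5.1 rppm in knockout and 16.2 ± 3.0 rppm in wild-type cells (SD, n = 3 each), a difference of -0.52 (adjusted p = 0.44).

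Adam18, a metalloprotease-family gene of the testis, held a region in its body (chr8:24649844-24650312) with 0.933, 2.52 and 1.77 rppm in knockout and 6.21, 8.51 and 9.02 rppm in wild-type MZB. It fell by 1.96 ± 0.39 on the log2 scale (adjusted p = 0.00539, and 0.055 without wild-type library 3). The region was nearly closed in FoB, at 0.461 ± 0.281 rppm in knockout and 0.144 ± 0.127 rppm in wild-type cells (SD, n = 3 each). Irak1bp1, which encodes a binding partner of the Toll-like receptor kinase IRAK1, lay 56330 bp from a region with 1.17, 1.58 and 0.591 rppm in knockout and 3.24, 5.32 and 6.53 rppm in wild-type MZB. The fall of -1.78 ± 0.34 had an adjusted p of 0.0035, and of 0.0583 without wild-type library 3. Lrig1, a negative regulator of growth factor receptors, lay 62779 bp from a region with 1.87, 1.89 and 2.07 rppm in knockout and 6.48, 7.18 and 5.60 rppm in wild-type MZB. It fell by 1.50 ± 0.31 on the log2 scale (adjusted p = 0.0096), with 0.0512 and 0.0696 without wild-type libraries 1 and 2. Uba3, the catalytic subunit of the enzyme that activates NEDD8, had 1.40, 2.52 and 0.887 rppm in knockout and 6.48, 5.32 and 5.60 rppm in wild-type MZB at a region in its body. Its fall was -1.65 ± 0.36 (adjusted p = 0.0158), and the adjusted p was 0.106 without knockout library 3 and 0.0908, 0.0536 and 0.0688 without each wild-type library. The falls at Smap1, Zfp345, Hsd17b2, Gk5 and Ero1b ranged from -1.56 to -1.38 and were lost in 3 to 5 of the 6 fits without 1 library.

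Among the gene starts with called regions outside the blocks, those of Tsc22d1, Sox4 and Sgk1 rose and those of Foxp1 and Lgr4 fell. The values of Sox4 and Sgk1 are given further below. Tsc22d1 encodes a leucine-zipper regulator induced by TGF-beta, and the region over the promoter printed above (chr14:76413931-76415155) had 30.8, 29.3 and 33.1 rppm in knockout and 16.5, 15.4 and 16.8 rppm in wild-type MZB. It rose by 0.92 ± 0.14 (adjusted p = 0.000237), and in FoB by 0.82 (adjusted p = 0.00115). The Lgr4 promoter, of a receptor for R-spondins, had 21.0, 23.0 and 27.2 rppm in knockout and 41.6, 47.6 and 45.1 rppm in wild-type MZB (chr2:109917311-109918185). It fell by 0.91 ± 0.16 on the log2 scale (adjusted p = 0.0012), and in FoB by 0.96 (adjusted p = 0.000601). Both calls held without each library and in edgeR and DESeq2. The Foxp1 promoter (chr6:99027983-99028886) had 12.8, 14.2 and 16.6 rppm in knockout and 21.9, 25.0 and 23.6 rppm in wild-type MZB, and Foxp1 encodes a forkhead repressor needed for B cell development. Its fall of -0.68 ± 0.13 (adjusted p = 0.00377) held without each library and in edgeR (adjusted p = 0.0084), but not in DESeq2 (adjusted p = 0.0855).

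A total of 13 genes had 3 or more regions called in 1 direction outside the blocks. They were chosen by these calls, so their counts, medians and shares above 0 follow in part from the choice. Over all tested regions outside the blocks, 0.414% were called higher, 0.212% were called lower and 46.9% were above 0. Sox4, the gene of a transcription factor of early B and T lymphocytes, had 5 higher regions among 36 tested, with a median over the 36 of 0.48 and 83.3% of them above 0. Its promoter (chr13:28952435-28954062) had 76.7, 83.9 and 79.5 rppm in knockout and 58.0, 65.7 and 58.5 rppm in wild-type MZB. That rise was 0.40 ± 0.08 (adjusted p = 0.0116), with 0.0766, 0.0736 and 0.0778 without knockout library 2 and wild-type libraries 1 and 3. The region 190693 bp from the gene (chr13:28757325-28758226) rose by 0.80 ± 0.14 (adjusted p = 0.00184), and this call held without each library. Another, 115139 bp away, had 17.7, 16.4 and 16.9 rppm in knockout and 8.91, 9.04 and 11.8 rppm in wild-type MZB (0.76 ± 0.15, adjusted p = 0.00781). It missed the threshold without wild-type library 1 (0.0571) or 2 (0.052). The last pair, 190150 and 67698 bp away, rose by 0.83 and 1.36 and was lost in 6 and 4 of the fits without 1 library. In FoB none of the 36 Sox4 regions was called, and at the promoter FoB had 83.8 ± 4.8 rppm in knockout and 81.4 ± 2.1 rppm in wild-type cells (SD, n = 3 each).

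On chromosome 1, outside its blocks, the neighbours Tsen15 and Rgl1 had 3 higher regions each. Tsen15 encodes a subunit of the tRNA splicing endonuclease, and 3 of its 7 tested regions were higher, 78002 to 116419 bp from the gene. The region at chr1:152287541-152288333 had 16.3, 17.7 and 20.1 rppm in knockout and 6.75, 9.04 and 7.78 rppm in wild-type MZB (1.15 ± 0.20, adjusted p = 0.000955). The next, at chr1:152291826-152292733, had 20.3, 19.9 and 20.1 rppm in knockout and 9.18, 12.5 and 8.40 rppm in wild-type MZB (0.99 ± 0.18, adjusted p = 0.00213). Both held without each library, and the remaining call was lost without knockout library 2 (0.0858) or wild-type library 3 (0.0869). The 2 Tsen15 regions between these calls and Rgl1 were not called, with log2 fold changes of -0.30 and -0.12. Rgl1, an exchange factor for the GTPase Ral, had 3 of 25 regions higher and 88% above 0. The best covered of these (chr1:152617683-152618247) had 9.10, 10.1 and 9.46 rppm in knockout and 3.51, 5.58 and 4.04 rppm in wild-type MZB (1.06 ± 0.20, adjusted p = 0.00225), and it held without each library. The other 2 Rgl1 calls were lost in 4 and 5 of those fits, and in one of them a knockout and a wild-type library both had 2.80 rppm.

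**Figure D3:**
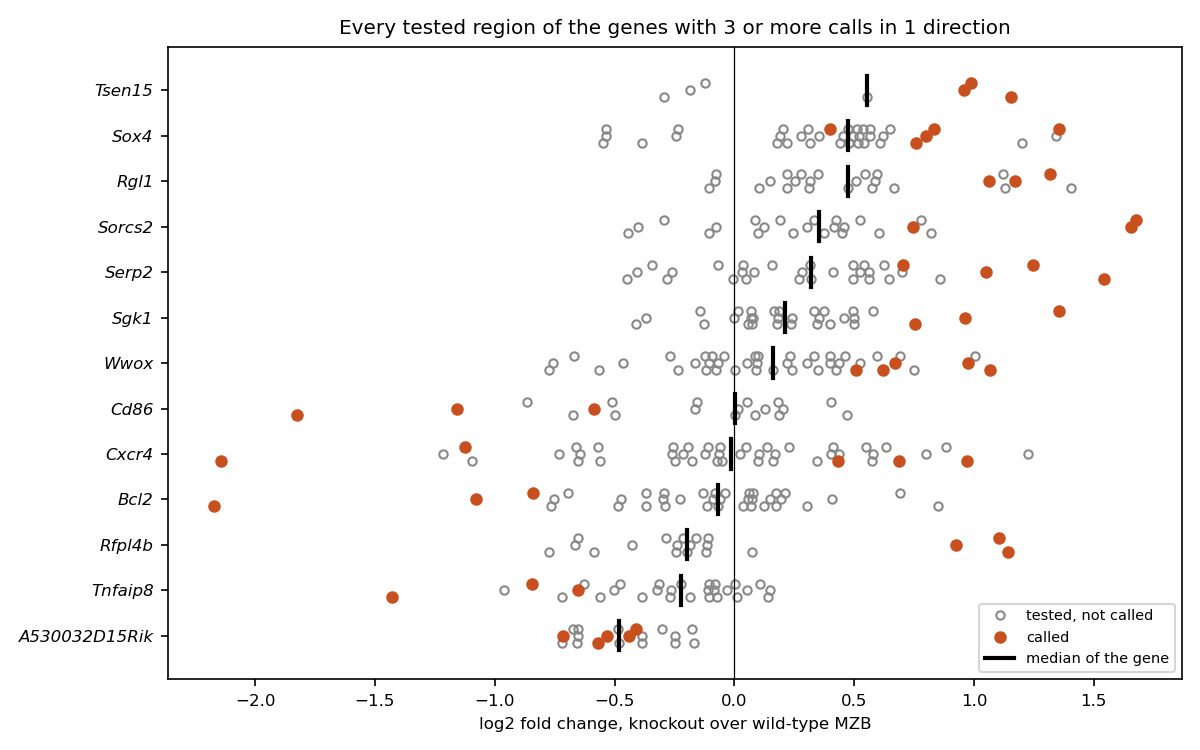
Log2 fold change of knockout over wild-type MZB (x axis) of every tested region outside the blocks assigned to the 13 genes with 3 or more called regions in 1 direction (y axis), with called regions filled and a bar at each gene's median. Sox4, Rgl1 and Tsen15 have medians near 0.5, whereas Cxcr4, Bcl2 and Cd86 have medians near 0, with called regions on the left for Bcl2 and Cd86 and on both sides for Cxcr4. The genes were chosen by their called regions, which count toward these medians.

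Wwox, an oxidoreductase gene spanning a fragile site, had 5 of 43 regions higher, 4 of them between 114801729 and 114816920 on chromosome 8. The region at chr8:114803086-114803654 had 20.1, 23.7 and 18.6 rppm in knockout and 9.99, 10.9 and 9.95 rppm in wild-type MZB, a rise of 0.98 ± 0.12 (adjusted p = 7.71e-06). In FoB the same region had 59.6 ± 8.5 rppm in knockout and 59.7 ± 5.0 rppm in wild-type cells (SD, n = 3 each). The difference between the knockout effects in MZB and FoB had an adjusted p of 0.0545 and so missed the threshold. The neighbour at chr8:114801729-114802090 had 7.70, 10.4 and 11.8 rppm in knockout and 4.59, 5.05 and 3.73 rppm in wild-type MZB (1.07 ± 0.18, adjusted p = 0.000671). Those 2 calls held without each library. The remaining 3 Wwox calls had log2 fold changes of 0.51 to 0.67 and were lost in 1 to 5 of the fits.

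Serp2, which encodes a small protein of the endoplasmic reticulum, had 4 of 31 regions higher, all outside the gene body. The region 22621 bp away (chr14:76579695-76580294) had 7.93, 12.9 and 10.1 rppm in knockout and 4.05, 3.46 and 2.18 rppm in wild-type MZB. It rose by 1.54 ± 0.17 (adjusted p = 6.21e-07) and held without each library. FoB stood at 47.6 ± 4.6 rppm in knockout and 39.7 ± 3.6 rppm in wild-type cells there (SD, n = 3 each). The region 41428 bp away rose by 0.70 ± 0.14 (adjusted p = 0.00765, and 0.0711 without wild-type library 3) and was called in FoB too (0.64, adjusted p = 0.0236). The other 2 Serp2 calls were lost in 4 and 5 of the fits without 1 library. Sgk1, a kinase induced by serum and glucocorticoids, had 3 of 30 regions higher and 83.3% above 0. One of them covers a start site (chr10:21881905-21882574), with 10.5, 11.4 and 9.16 rppm in knockout and 6.21, 6.65 and 4.98 rppm in wild-type MZB (0.75 ± 0.17, adjusted p = 0.0247). Its adjusted p was 0.0586, 0.118, 0.0529 and 0.141 without knockout libraries 1 and 2 and wild-type libraries 1 and 3, and the other 2 Sgk1 calls were lost in 3 such fits each. Sorcs2 had 3 of 24 regions higher, of which the region described above held without each library and the other 2 were lost in 4 and 2 such fits. Rfpl4b had 3 of 19 regions higher within 5 kb of each other, although only 21.1% of its regions were above 0. The best covered of these (chr10:38884622-38885107) had 18.9, 18.6 and 18.9 rppm in knockout and 7.29, 7.98 and 9.64 rppm in wild-type MZB (1.14 ± 0.17, adjusted p = 0.000187), and it rose in FoB by 1.19 (adjusted p = 9.85e-05). This call held without each library, and the other 2 were lost in 4 and 6 of the fits without 1 library.

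Cxcr4, the receptor for the chemokine CXCL12 that holds B cells in place, had called regions in both directions, 3 higher and 2 lower among 44 tested. The region 103562 bp from the gene (chr1:128695861-128696297) had 7.46, 5.36 and 8.28 rppm in knockout and 15.7, 16.2 and 15.2 rppm in wild-type MZB (-1.13 ± 0.18, adjusted p = 0.000487). The region 94350 bp away had 0.933, 0.946 and 0.887 rppm in knockout and 4.05, 6.91 and 6.84 rppm in wild-type MZB (-2.14 ± 0.36, adjusted p = 0.0008). Both falls held without each library. In contrast, the region 15597 bp away (chr1:128607896-128608530) had 56.7, 53.9 and 52.0 rppm in knockout and 41.6, 37.8 and 40.7 rppm in wild-type MZB (0.43 ± 0.09, adjusted p = 0.00935, and 0.069 without wild-type library 2). The regions 118713 and 132156 bp away rose by 0.69 and 0.97 and were lost in 6 and 4 of the fits without 1 library. Across the gene's 44 regions 50% were above 0. The called Cxcr4 regions all lie within 5 Mb of a block on chromosome 1, and 1.06% of the regions that near to any block were called.

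Among genes with several falls, Bcl2, which blocks apoptosis, had 3 of 37 regions lower, all inside the gene. The region at chr1:106561009-106561731 had 8.16, 9.46 and 9.75 rppm in knockout and 19.97, 19.1 and 20.2 rppm in wild-type MZB (-1.08 ± 0.22, adjusted p = 0.00868). Its adjusted p was 0.0506 and 0.0591 without wild-type libraries 1 and 3, and it also fell in FoB (-1.63, adjusted p = 2.92e-05). The libraries of each group lay close together there. Another (chr1:106595256-106595707) had 8.16, 8.52 and 13.3 rppm in knockout and 19.4, 16.5 and 17.7 rppm in wild-type MZB (-0.84 ± 0.19, adjusted p = 0.0213), and was lost in 5 of the fits. At the last of them the knockout libraries had 0.933, 0 and 0.296 rppm, 5 reads in all, against 2.97, 4.52 and 2.49 rppm in wild-type MZB (adjusted p = 0.00736, and 0.0837 and 0.0726 without knockout library 2 and wild-type library 2). Cd86, which encodes a costimulatory ligand of CD28, had 3 of 19 regions lower. The widest (chr16:36635191-36635785) had 17.0, 16.1 and 16.9 rppm in knockout and 24.8, 28.2 and 23.0 rppm in wild-type MZB (-0.59 ± 0.13, adjusted p = 0.0185), with 0.0768 and 0.0522 without knockout libraries 2 and 3 and 0.0572 and 0.124 without wild-type libraries 1 and 2. The others fell by 1.16 and 1.83 on the log2 scale and were lost in 4 fits each. Over all 19 regions of Cd86 52.6% were above 0.

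Tnfaip8, a TNF-induced gene that modulates apoptosis, had 3 of 29 regions lower and only 20.7% above 0. The region at chr18:49981920-49982519 had 15.9, 18.3 and 17.4 rppm in knockout and 30.2, 25.8 and 26.1 rppm in wild-type MZB (-0.65 ± 0.14, adjusted p = 0.00962, and 0.0836 without wild-type library 1). A second (chr18:50064575-50065408) had 16.8, 18.3 and 11.5 rppm in knockout and 29.2, 24.2 and 30.5 rppm in wild-type MZB (-0.85 ± 0.19, adjusted p = 0.0237), and was lost without knockout library 3 (0.17) and wild-type libraries 1 (0.109) and 3 (0.14). The remaining one fell by 1.43 on the log2 scale and was lost in each fit. All 19 regions of A530032D15Rik on chromosome 1 had a fold change below 0, and 5 were lower, with log2 fold changes of -0.71 to -0.41. That uncharacterised gene lies beside Sp100- and Sp140-related genes of similar sequence, so the reads cannot be assigned to it with certainty. Each of its 5 calls was lost in 3 or more of the fits without 1 library.

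The lists of genes chosen for B cells and for the other cells that the gate could hold numbered 26, of which 14 had at least 1 called region outside the blocks. Immature and transitional B cell genes had 7 of 98 regions higher (7.14%, against 0.414% of all tested regions outside the blocks) and 0 lower, and a median log2 fold change of 0.32, against -0.02 over all. Sox4 supplied 5 of the 7 calls and 36 of the 98 regions, so the median and the sums of the list rest in part on 1 gene. Cd93, whose product the gate used to exclude immature cells, had a region (chr2:148443234-148443770) with 31.95, 27.1 and 37.5 rppm in knockout and 16.5, 22.6 and 20.5 rppm in wild-type MZB (0.68 ± 0.12, adjusted p = 0.00205), a call that held without each library. Lef1, a transcription factor of early lymphocytes, had 11.2, 16.1 and 13.9 rppm in knockout and 7.29, 9.04 and 9.64 rppm in wild-type MZB (0.63 ± 0.16, adjusted p = 0.0387). That call was lost in the fits without knockout library 2 (0.205) or 3 (0.112) and without wild-type library 1 (0.182), 2 (0.0772) or 3 (0.0543). Summed over the 98 regions, the list had 759 to 796 rppm in knockout and 603 to 638 rppm in wild-type MZB, with 894 to 996 rppm in knockout and 873 to 946 rppm in wild-type FoB. Fewer cells of a type and less open chromatin per cell cannot be told apart in such bulk libraries.

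**Figure D4:**
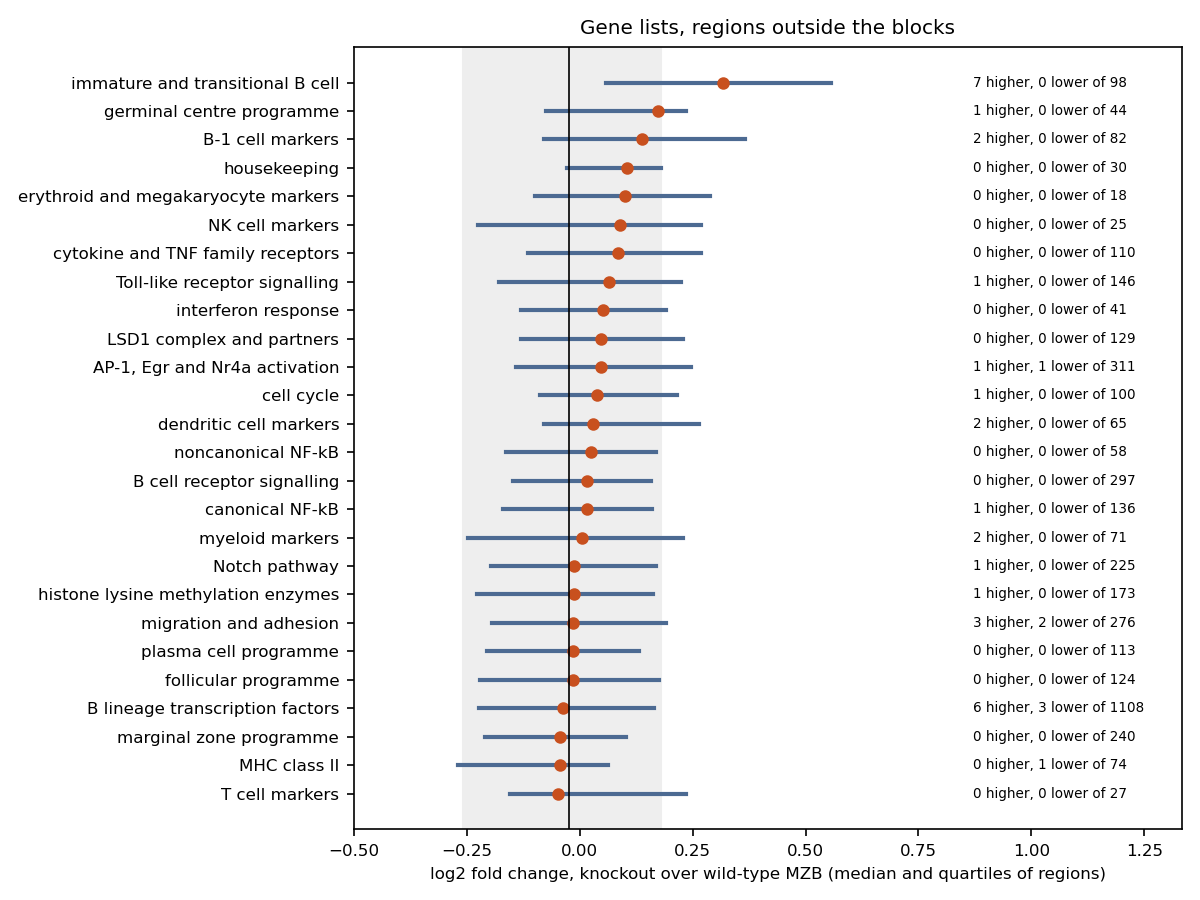
Median (point) and quartiles (line) of the log2 fold change of knockout over wild-type MZB (x axis) of the regions outside the blocks in each of 26 gene lists (y axis), with the number called at the right and the median and quartiles of all tested regions outside the blocks as a line and grey band. Only the immature and transitional list has its median above the grey band, and Sox4 supplies 36 of its 98 regions.

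B lineage transcription factors had 6 of 1108 regions higher (0.542%) and 3 lower (0.271%), shares near those of all regions. Tcf4, an E protein that binds E-boxes, supplied 2 of the rises. Its region at chr18:69475659-69476091 had 17.0, 16.7 and 18.9 rppm in knockout and 6.48, 6.91 and 7.15 rppm in wild-type MZB (1.30 ± 0.19, adjusted p = 6.7e-05), and held without each library. A second region of the gene had 7.93, 8.83 and 8.87 rppm in knockout and 4.32, 5.32 and 3.11 rppm in wild-type MZB (0.96 ± 0.18, adjusted p = 0.00377, and 0.055 without wild-type library 3). Runx1, a factor of blood stem cells and lymphocytes, supplied another pair, of which the one at chr16:93019948-93020608 had 29.4, 22.4 and 29.6 rppm in knockout and 17.0, 17.3 and 13.1 rppm in wild-type MZB. It rose by 0.76 ± 0.16 (adjusted p = 0.0117), with 0.0567, 0.0803 and 0.121 without knockout libraries 1 and 3 and wild-type library 3. The remaining calls were rises at Bcl11a and Irf8 and falls at Foxp1, Mef2c and Ets1. Of these Ets1, which restrains plasma cell formation, had 18.2, 14.2 and 18.9 rppm in knockout and 32.7, 26.6 and 22.7 rppm in wild-type MZB (-0.66 ± 0.15, adjusted p = 0.0261), and was lost without knockout library 2 (0.17) and wild-type libraries 1 (0.182) and 2 (0.0797). The calls at Bcl11a, Irf8 and Mef2c were lost in some fits without 1 library, with adjusted p up to 0.184, 0.264 and 0.153. Neither edgeR (adjusted p = 0.0536, 0.0856 and 0.0712) nor DESeq2 called these regions.

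The 5 calls in the migration and adhesion list (276 regions) were those at Cxcr4. They made up 1.09% higher and 0.725% lower, against 0.414% and 0.212% of all tested regions outside the blocks. The other signalling and effector lists had at most 1 call in a direction, so that each share rests on 1 region. Higher calls were 1 of 146 Toll-like receptor (0.685%), 1 of 136 canonical NF-kB (0.735%) and 1 of 173 histone methylation enzyme regions (0.578%). Cell cycle had 1 of 100 higher (1%) and MHC class II 1 of 74 lower (1.35%). The AP-1, Egr and Nr4a list had 1 higher and 1 lower of 311 (0.32% each). In the Notch pathway 1 of 225 regions was higher (0.444%, close to the 0.414% of all tested regions outside the blocks), 939 bp from the start of Hes5, a Notch target (chr4:154961862-154962334). It had 22.9, 24.6 and 28.1 rppm in knockout and 13.5, 18.1 and 17.4 rppm in wild-type MZB (0.62 ± 0.14, adjusted p = 0.0185), with 0.0604, 0.112 and 0.148 without knockout libraries 2 and 3 and wild-type library 1. Tlr2, a sensor of bacterial lipoproteins, had 12.8, 15.5 and 14.8 rppm in knockout and 7.29, 8.51 and 8.40 rppm in wild-type MZB at a region 25233 bp away (0.79 ± 0.19, adjusted p = 0.0345). Ciita, the master regulator of MHC class II genes, had 20.5, 13.9 and 17.1 rppm in knockout and 26.5, 22.1 and 29.9 rppm in wild-type MZB (-0.60 ± 0.15, adjusted p = 0.0353). The calls at Tlr2 and Ciita were lost in 5 and 4 of the fits without 1 library, with adjusted p up to 0.147 and 0.214. Single calls of the same strength lay at Ikbkb, Kdm3b, Myc, Nr4a3 and Ccnd3 (adjusted p = 0.0219 to 0.0412), none of which held without each library, and DESeq2 called none of them (it gave Kdm3b no adjusted p).

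No region was called outside the blocks in 12 lists, among them the marginal zone programme (240 regions, median -0.04), B cell receptor signalling (297 regions, median 0.02), the plasma cell programme (113 regions, median -0.01), noncanonical NF-kB (58 regions, median 0.02) and LSD1 complex and partners (129 regions, median 0.05). At an unadjusted p under 0.05, limma gave 11 higher (4.58%) and 10 lower (4.17%) regions in the marginal zone programme and 17 higher (5.72%) and 10 lower (3.37%) in B cell receptor signalling, against 6.07% higher and 6.93% lower of all tested regions outside the blocks. Across the 12 lists edgeR made 2 calls and DESeq2 made 0. The follicular programme (124 regions outside the blocks, median -0.01) had 10 higher (8.06%) and 8 lower (6.45%) at that unadjusted level. T cell markers, with 27 tested regions, had 0 in either direction at that level, and Cd3g, Cd4, Cd8a and Bcl11b had no tested region. Summed over their regions, T cell markers had 143 to 159 rppm in knockout and 146 to 155 rppm in wild-type MZB. NK cell markers had 6 higher and 1 lower of 25 regions at that level, and edgeR called 1 of the 25 higher. Their regions summed to 378 to 421 rppm in knockout and 362 to 368 rppm in wild-type MZB. Erythroid and megakaryocyte markers had 1 higher and 1 lower of 18 regions. They summed to 100 to 105 rppm in knockout and 90.1 to 95.2 rppm in wild-type MZB.

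Markers of myeloid, dendritic and B-1 cells had 2 called rises each, of 71, 65 and 82 regions (2.82%, 3.08% and 2.44%, against 0.414% of all tested regions outside the blocks). Fcgr1, a high-affinity antibody receptor of macrophages, lay 4198 bp from a region (chr3:96277513-96278711) with 37.3, 43.5 and 38.4 rppm in knockout and 27.5, 26.1 and 24.9 rppm in wild-type MZB (0.59 ± 0.11, adjusted p = 0.00241), a call that held without each library. The other 5 of these rises, at Adgre1, Flt3, Ccr9, Bhlhe40 and Spn, were each lost in 3 or more of the fits without 1 library, with adjusted p up to 0.162, 0.104, 0.224, 0.207 and 0.151. The myeloid list summed to 572 to 617 rppm in knockout and 572 to 588 rppm in wild-type MZB, over 71 regions with a median of 0.01, and Elane, Mpo and S100a8 had no tested region. The dendritic cell list, called at Flt3 and Ccr9, summed to 646 to 672 rppm in knockout and 613 to 632 rppm in wild-type MZB. The B-1 list, called at Bhlhe40 and Spn, summed to 963 to 986 rppm in knockout and 909 to 911 rppm in wild-type MZB. The part of such cells in the changes at B cell genes was not tested.

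Inside the blocks, which make up 50 Mb, changes were denser and larger, as their choice from earlier results of these data would give. The block from 120 Mb on chromosome 1 had 4 higher and 7 lower of 81 regions (13.6%), and that on chromosome 15 had 21 higher and 2 lower of 242 (9.504%). The block from 130 Mb on chromosome 1 had 28 higher and 27 lower of 728, that on chromosome 18 22 higher and 19 lower of 551, and that on chromosome 12 6 higher and 0 lower of 139. The block on chromosome 4, which holds Kdm1a itself, had 7 higher and 6 lower of 325 (4%). There Tcea3, a transcription elongation factor gene, had a region in its body (chr4:136266611-136267210) with 10.3, 10.4 and 8.57 rppm in knockout and 23.2, 27.7 and 24.6 rppm in wild-type MZB (-1.33 ± 0.17, adjusted p = 8.65e-06). On chromosome 18, Pstpip2, which restrains macrophage activation, had 11.4, 14.5 and 12.7 rppm in knockout and 28.6, 33.0 and 29.2 rppm in wild-type MZB (-1.21 ± 0.17, adjusted p = 7.72e-05). On chromosome 12, a region over Gm2436 and Srp54b, a copy of the signal recognition particle subunit gene, had 146, 132 and 141 rppm in knockout and 77.2, 58.5 and 65.3 rppm in wild-type MZB (1.06 ± 0.11, adjusted p = 8.33e-08). Srp54 has near-identical copies, so that value is uncertain. The median over all called regions in the blocks was 1.58 for the 88 rises, against 0.85 outside, and -1.54 for the 61 falls, against -1.16 outside. Differences between the mice other than LSD1 status, if any, cannot be told apart from it in this design.

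The MZB calls were then set beside the knockout effect in FoB. The fold changes of the cell types share no library. However, the fit filtered regions and pooled the variance over all 12 libraries, so calls in MZB and FoB are not independent. Of the 363 higher regions outside the blocks, 314 (86.5%) were above 0 in FoB too and 42 were called higher. Of the 186 lower regions, 150 (80.6%) were below 0 in FoB and 18 were called lower. None was called the opposite way. Over all tested regions outside the blocks 58.0% had the same sign in both cell types, and 220 (0.251%) were called higher and 141 (0.161%) lower in FoB. Median fold changes of the called regions in FoB were smaller, at 0.30 for the rises and -0.27 for the falls. The regions were chosen by their MZB change, which by itself favours smaller medians in FoB, so no weaker effect in FoB can be read from this. Inside the blocks 97.7% of the rises and 98.4% of the falls had the same sign in FoB, against 68.2% of all tested regions there. Of these rises and falls 49 and 31 were called in FoB, where 3.24% of all tested regions inside the blocks were called higher and 2.71% lower. Whether the MZB and FoB of a number came from the same mouse is not stated, so shared mice cannot be told apart from shared effects.

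**Figure D5:**
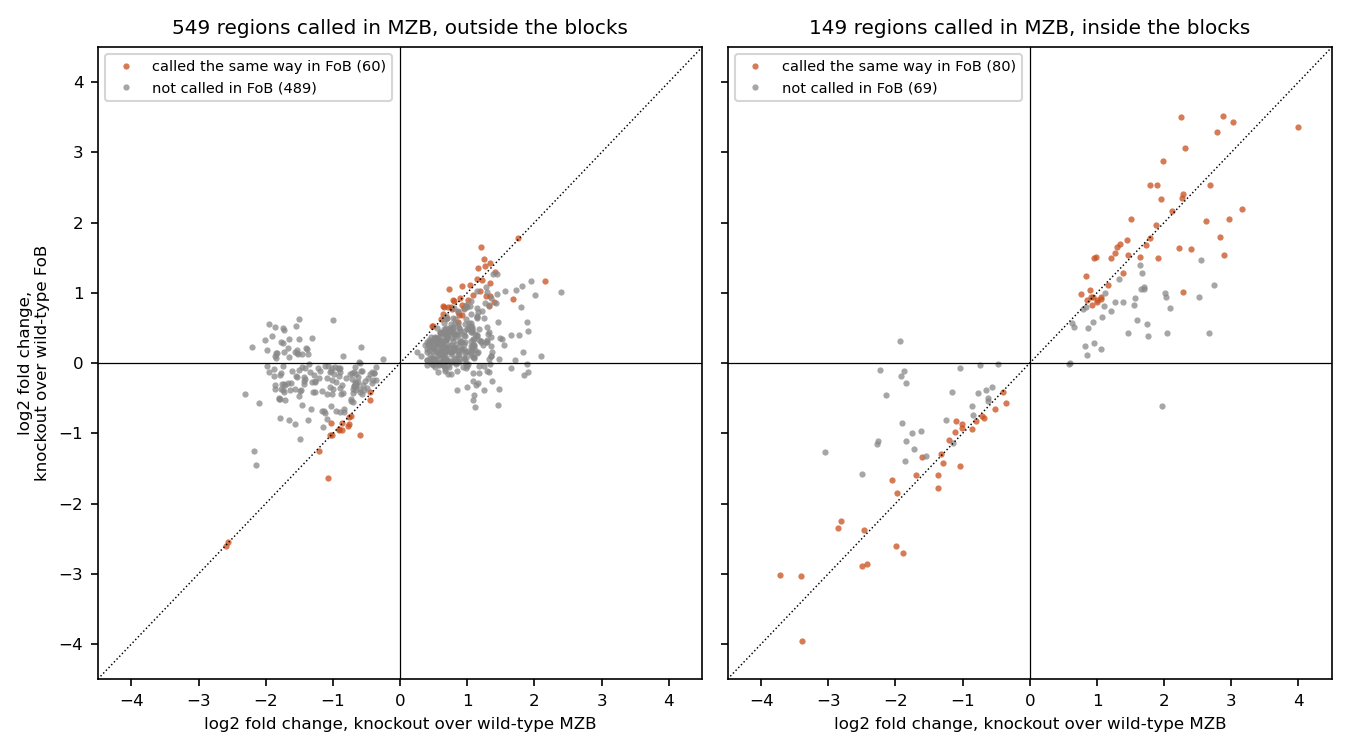
Log2 fold change of knockout over wild-type MZB (x axis) against that of knockout over wild-type FoB (y axis) for the regions called in MZB, outside the blocks (left) and inside them (right), with the dotted line at equal values. The median changes are smaller in FoB than in MZB in both panels, at 0.30 against 0.85 for the rises outside the blocks and 1.07 against 1.58 for those inside, and single regions lie far from the line. The regions were chosen by their MZB change, which by itself favours smaller medians in FoB.

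The difference between the knockout effects in MZB and FoB was tested directly. Over all 89782 regions 1 passed in limma (0.00111%), while 5585 (6.22%) had an unadjusted p under 0.05. No region outside the blocks passed (0%), in limma, edgeR or DESeq2, although 5436 (6.20%) had an unadjusted p under 0.05 in limma. Inside the blocks, where 149 (7.21%) had such an unadjusted p, 1 region passed in limma (0.0484%) and DESeq2, in the body of Ccdc93, a subunit of an endosomal sorting complex (chr1:121461682-121462971), and edgeR added 1 at Rgs18. The Ccdc93 region fell in FoB, with 32.3 ± 4.1 rppm in knockout and 74.6 ± 7.8 rppm in wild-type cells (SD, n = 3 each, -1.20, adjusted p = 2.72e-10). In MZB it had 67.9, 67.8 and 64.1 rppm in knockout and 85.3, 87.5 and 81.2 rppm in wild-type cells (-0.34 ± 0.10, adjusted p = 0.0864). The knockout effects differed by 0.86 (adjusted p = 0.0288). It was lost with a pseudocount of 0.1 (0.0843), with a replicate block (0.0641) and without knockout library 1 (0.0585) or 2 (0.0733) or wild-type library 1 (0.0883), 2 (0.12) or 3 (0.237), while the difference stayed between 0.785 and 0.884 in each alternative that gives it. A region called in MZB and not in FoB was therefore not shown to respond in MZB alone.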

How the data were processed

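The authors deposited 1 table of ATAC-seq values for 94161 regions and 12 libraries in rppm, that is reads per peak scaled to RPM over the listed regions (each column sums to 1000000). The submitters' processing notes name Bowtie 1.1.1, the build mm10 and MACS2. Read filters, the merging of peaks, the Tn5 offset and whether starts count from 0 or 1 were not stated, and coordinates are printed as deposited. All values were whole multiples of a library's step within 0.01 (100%), so whole reads were recovered. No molecular identifiers mark the reads as independent. Replicate libraries exceeded the sampling noise of their reads (chi-square over degrees of freedom 1.08 to 1.87), so none was counted as a duplicate.

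Regions that reached 1 rppm in 3 or more of the 12 libraries were fitted with limma 3.58.1 in R 4.3.3 (trend) on log2(rppm + 0.5), with 1 coefficient for each of the 4 groups and Benjamini-Hochberg adjustment over the 89782 tested regions (two-sided, threshold 0.05). Adjusted p-values are from this fit where no other tool is given. As alternatives on the recovered reads, edgeR 4.0.16 (quasi-likelihood, TMM) called 430 regions higher and 299 lower, and DESeq2 1.42.0 was run. The fits were tested on simulated data. Other settings were a pseudocount of 0.1 or 2, no filter, quantile normalisation, robust variance, MZB libraries only, a replicate block, leaving out each MZB library, wider blocks and, chosen after seeing the data, leaving out block regions before the fit.

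Each region took the protein-coding gene (of 21900 in RefSeq, GRCm38.p6) that overlaps it or lies nearest. Start sites came from RefSeq promoters and were not used on chromosome 18. Named regions were the 12 largest rises and falls outside the blocks (adjusted p under 0.05, groups not overlapping, at least 5 rppm in the higher group, 1 per gene), the best call per direction in each block and each gene list, the genes with the most calls in 1 direction (ties at 3 included) and Kdm1a. The other promoters printed and the further calls of the gene lists were chosen after their values were seen. A fall among the 12 largest and a call in 1 gene list are not reported here. The blocks, the comparison and the gene lists were chosen with earlier results of these data known.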

Additional observations from a re-analysis of the deposited data

Results flagged for a closer look

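At the region in Ccdc93 (chr1:121461682-121462971) the knockout effects in MZB and FoB differed by 0.86 on the log2 scale (limma, adjusted p = 0.0288), with a small difference in MZB (-0.34, adjusted p = 0.0864) and a larger fall in FoB (-1.20, adjusted p = 2.72e-10). That difference missed the threshold in 5 of the 6 fits without 1 MZB library (adjusted p = 0.0585 to 0.237) and held without knockout library 3 (0.0369). At a region 5884 bp from Ikbkb, a kinase gene of the canonical NF-kB pathway, the knockout libraries were all higher than the wild-type libraries in MZB (1.24 ± 0.28, adjusted p = 0.0219) and all lower in FoB. It had 2.33, 3.16 and 2.96 rppm in knockout and 1.35, 0.798 and 0.622 rppm in wild-type MZB, against 5.32 ± 0.86 rppm in knockout and 7.05 ± 0.44 rppm in wild-type FoB (SD, n = 3 each). The test of that difference did not pass (adjusted p = 0.5), and the MZB call was lost without knockout libraries 2 (0.102) and 3 (0.0765) and wild-type libraries 2 (0.0718) and 3 (0.114).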

How the results depend on the processing

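Called rises outnumbered called falls under each alternative, over all regions, outside and inside the blocks, except without knockout library 1 (357 rises and 360 falls over all, 0.324% and 0.351% outside). DESeq2 called 122 higher and 48 lower over all tested regions, 0.152% and 0.0433% outside, and 38 and 24 inside the blocks. Quantile normalisation gave 780 and 474 over all and 0.765% and 0.446% outside. A pseudocount of 0.1 gave 128 lower over all and 0.272% higher and 0.0958% lower outside, and one of 2 gave 548 lower over all, 0.519% outside and 93 inside. MZB libraries alone gave 490 lower over all and 0.456% outside. Leaving out 1 library at a time gave 204 to 357 higher and 83 to 360 lower over all, 0.165% to 0.324% and 0.0502% to 0.351% outside, and 59 to 73 and 39 to 52 inside the blocks. Rises made up 64.6% of calls, and 49.8% without knockout library 1, 51.4% with MZB libraries alone and 53.1% with a pseudocount of 2. Leaving block regions out before the fit gave 0.337% higher and 0.163% lower outside, and widening the blocks by 5 Mb gave 0.409% and 0.209%. The count of regions whose knockout effect differs between cell types was 1, and 2 with edgeR, 0 with a pseudocount of 0.1, 5 with 2, 4 with quantile normalisation, 3 with robust variance and 0 to 3 without 1 library.

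Same-numbered knockout and wild-type MZB libraries did not deviate together (r = -0.017, 0.011 and -0.002). Such values cannot exclude that the numbers pair libraries, which the labels do not state. With a replicate block 417 regions were higher and 240 lower over all, 0.378% and 0.207% outside, and 0 differed between cell types. Of 97 named calls, 34 held without each library (24 of 86 outside the blocks), edgeR kept 81 and DESeq2 kept 37 of the 86 to which it gave an adjusted p. None changed direction. The uncalled Kdm1a promoter had log2 fold changes from -0.085 (without wild-type library 3) to 0.318 (without knockout library 1), with -0.000302 without knockout library 2. The cause of these changes was not tested. Low regions are limited by depth, since 3 reads amount to 0.70 to 0.95 rppm in MZB.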
